A study of Mus musculus with 4 samples.

Results

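The SLC25 mitochondrial solute carriers were taken as all genes whose symbol in the array's annotation starts with Slc25a, except the oxoglutarate, aspartate-glutamate and acylcarnitine carriers Slc25a11, Slc25a12, Slc25a13 and Slc25a20. The array measures 30 such genes among 12393 genes that have a probe set with a single symbol. Each gene is given by its probe set of highest mean, and 22 of the 30 exceeded the filter on dim signals, which requires a mean over the 4 arrays above 444 signal units. The other 8 lay below it and are described by their signals only; single arrays of a gene below the filter can read above that level.

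Carriers of this family are small proteins of the mitochondrial inner membrane that pass metabolites between the cytosol and the matrix, usually as an exchange of one substrate for another. In muscle the most abundant ones serve ATP production: the adenine nucleotide translocator brings ADP in and ATP out, and the phosphate carrier supplies phosphate to ATP synthase. Other members move carboxylates, amino acids, cofactors and iron, and the family also holds relatives of the uncoupling proteins.

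Gastrocnemius muscle of mice aged 6 weeks was profiled on 4 Affymetrix arrays. Of these, 2 held RNA of wild-type, non-transgenic littermates (NTG) and 2 held RNA of MCK-PPARb mice, a transgenic line that overexpresses PPARbeta, a lipid-activated nuclear receptor encoded by Ppard, in muscle; MCK names the muscle creatine kinase promoter. The labels used here give no strain, founder line or pooling. They call the arrays biological replicates, but the study's design text can also be read otherwise; if arrays of a group shared their mice, the p-values cover only technical spread. Whole-muscle RNA cannot tell fewer cells of a type from less RNA per cell.

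Ppard read 2169 and 2825 in NTG and 126049 and 98797 in MCK-PPARb muscle (log2 difference 5.49 ± 0.22, SE, adjusted p = 0.000187 with limma), as the labels have it. The 8 skeletal muscle markers examined read between 55956 and 284839 on every array. On NTG array 1 a larger share of all signal, 4.20%, lay in the 10 brightest probe sets than on the other 3 (2.36% to 2.78%). The summed signal of the muscle markers was 1770000 on that array and 955700 to 1099000 on the others. This touches the brightest carriers, so Slc25a3, Slc25a4 and Slc25a5 are given with and without that array at their brightest probe sets.

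The comparison asks whether muscle that overexpresses PPARbeta carries other levels of the transcripts for mitochondrial metabolite transport. At its probe set of highest mean, no carrier passed an adjusted p under 0.05 in limma, in either direction, while 0.731% of all 6841 genes tested were called, 0.409% higher and 0.322% lower. At an unadjusted p under 0.05, 1 of the 22 tested carriers was lower (4.55%), namely Slc25a25, and 0 were higher; over all genes 5.57% were lower and 5.31% higher, 10.9% in all. Differences ran from -1.02 for Slc25a25 to 0.85 for Slc25a10 on the log2 scale. Their median was -0.25, beside 0.011 over all genes tested, and 14 of the 22 carriers (63.6%) read lower in MCK-PPARb muscle, beside 48.8% of all genes. Without NTG array 1 the carriers' median was -0.14, and it was -0.24 when the remaining arrays were also quantile normalized. The SE of a carrier's difference had a median of 0.27, about the size of the median difference itself.

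Both MCK-PPARb arrays lay below both NTG arrays for 7 carriers (31.8%, beside 20.8% of all genes). These were Slc25a4, Slc25a15, Slc25a25, Slc25a28, Slc25a29, Slc25a30 and Slc25a46. In the 12 mitochondrial reference genes described further below the share was 41.7%. For 1 carrier (4.55%, beside 22.2% of all genes), Slc25a10, both lay above, and it passed the filter only through the MCK-PPARb group. The groups overlapped for the other 14; over all genes, 42.9% had groups apart in one or the other direction. An exact two-sided permutation test of 2 arrays against 2 has 0.333 as its smallest p, so any call depends on limma's pooling of the spread. Only 3 carriers, Slc25a10, Slc25a25 and Slc25a30, differed by more than 0.5 on the log2 scale (13.6%; 19.5% of all genes did).

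**Figure D1:**
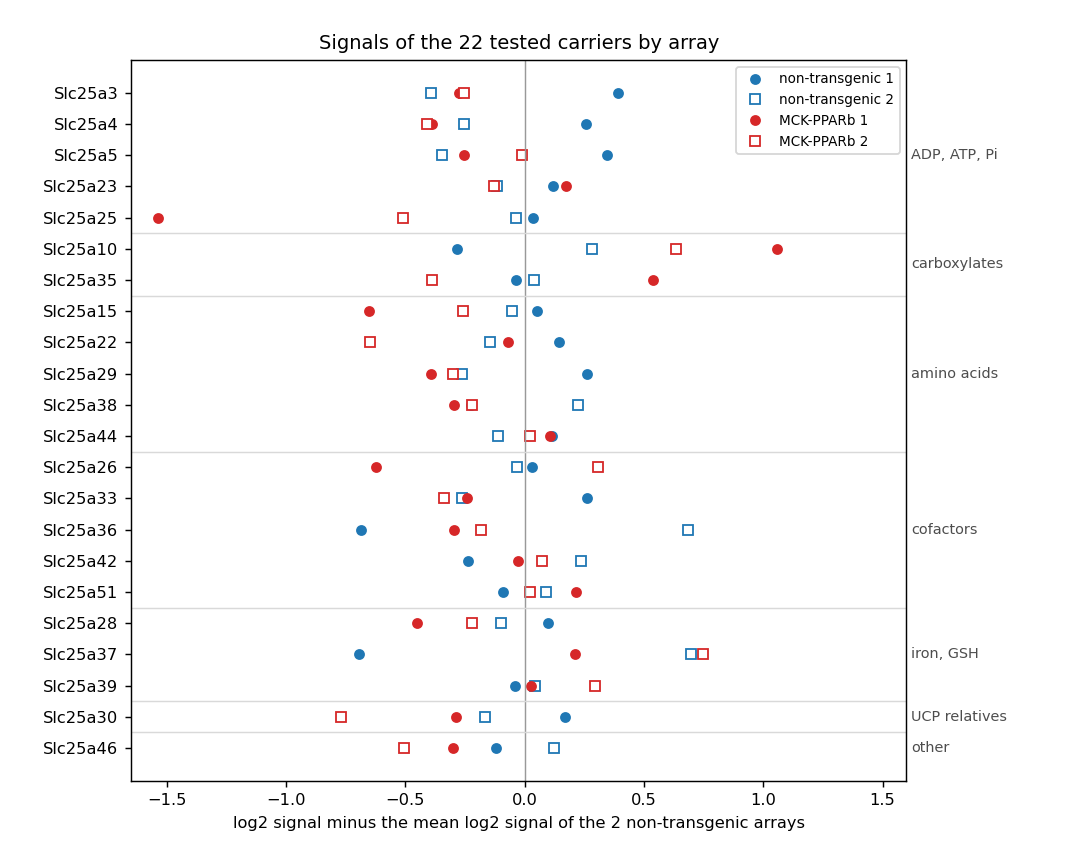
Each row is a tested carrier and each point an array; the horizontal axis is the log2 signal minus the mean log2 signal of the 2 non-transgenic arrays, and rows are grouped by the substrate carried. Blue marks non-transgenic and red MCK-PPARb arrays, with filled circles for replicate 1 and open squares for replicate 2; both red points lie left of both blue ones in 7 rows and right of them in 1.

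Among the carriers of adenine nucleotides and phosphate, 5 of 6 genes were tested and 4 had a negative difference. Slc25a25, a calcium-regulated exchanger of ATP-magnesium for phosphate, read 2899 and 2760 in NTG muscle and 974 and 1985 in MCK-PPARb muscle. Both MCK-PPARb arrays were lower, array 1 far more so than array 2. The difference was -1.02 ± 0.34 (SE, n = 2 per group), a 2.03-fold lower level with 95% limits of -1.83 to -0.22 on the log2 scale, which are not adjusted for the number of genes. It did not pass over all probe sets (adjusted p = 0.334 with limma, and 0.0570 to 0.877 over the alternatives). Without MCK-PPARb array 1 the difference was -0.51, and without MCK-PPARb array 2 it was -1.54.

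Promoter windows are shown for Slc25a25, which differed most, for Slc25a36, which has a motif in common with it, and for Slc25a39, the carrier with a nuclear receptor half-site that was tested. RefSeq's table (GRCm38.p6) holds 32 windows for 23 of the 30 carriers, of which the 250 bases before each transcript start were searched. The cyclic AMP response element TGACGTCA, which reads the same on both strands, was searched after the windows had been read. It was found in 1 of the 3 windows of Slc25a25 and in the window of Slc25a36, and in 1.55% of all 32851 windows. The nuclear receptor half-site AGGTCA, searched on both strands, was found in 3 carrier windows, those of Slc25a39, Slc25a45 and Slc25a47, and in 14.0% of all windows. No carrier window held both motifs. The windows of Slc25a25 (chr2:32424067-32424316, minus strand), Slc25a36 (chr9:97111042-97111291, minus strand) and Slc25a39 (chr11:102407518-102407767, minus strand) are shown on the gene's strand, 5′ to 3′, with the motif in capitals; the first base of the motif lies 150, 161 and 172 bases before the start.
Slc25a25: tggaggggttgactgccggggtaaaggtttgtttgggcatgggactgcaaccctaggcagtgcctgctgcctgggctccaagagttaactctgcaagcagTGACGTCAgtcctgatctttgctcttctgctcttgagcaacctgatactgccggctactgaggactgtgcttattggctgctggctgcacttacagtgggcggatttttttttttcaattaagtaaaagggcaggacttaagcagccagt
Slc25a36: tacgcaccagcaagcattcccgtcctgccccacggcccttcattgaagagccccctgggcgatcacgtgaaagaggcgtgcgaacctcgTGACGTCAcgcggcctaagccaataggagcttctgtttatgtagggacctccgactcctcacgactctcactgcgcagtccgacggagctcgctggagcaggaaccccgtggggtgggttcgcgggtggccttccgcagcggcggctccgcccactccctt
Slc25a39: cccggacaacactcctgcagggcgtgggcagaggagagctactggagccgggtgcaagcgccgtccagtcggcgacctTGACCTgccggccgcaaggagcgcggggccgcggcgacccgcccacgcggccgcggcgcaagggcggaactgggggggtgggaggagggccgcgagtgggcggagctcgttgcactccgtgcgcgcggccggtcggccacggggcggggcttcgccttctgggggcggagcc
The capitals in the Slc25a39 window spell the half-site on the opposite strand. Slc25a36 and Slc25a39 had differences of -0.24 and 0.16 with overlapping groups, and Slc25a45 and Slc25a47 lay below the filter. These matches describe the letters only.

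Slc25a4 encodes the adenine nucleotide translocator of heart and skeletal muscle. Its brightest probe set, 1455069_x_at, read 161182 and 113073 in NTG muscle and 103078 and 101598 in MCK-PPARb muscle. Both MCK-PPARb arrays were lower, but NTG array 1 stood well above the other 3, which lay close together. The difference was -0.40 ± 0.23 (adjusted p = 0.603 with limma), with 95% limits of -0.94 to 0.14, and -0.14 without NTG array 1. The suffix marks probes that can also bind similar sequences of other genes.

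The gene has 3 further probe sets, and the groups stayed apart on each of the 4, always with lower MCK-PPARb signals. All 4 read 1 gene on the same arrays, so they are not separate observations. Over all genes, each at its brightest probe set, 20.8% had groups apart and lower. Probe set 1434897_a_at read 60563 and 56414 against 32937 and 33037. Its arrays agreed closely within each group, and the difference was -0.83 ± 0.18, a level of 0.564 of the NTG value. That was the smallest adjusted p of any carrier probe set, 0.122 with limma, and it lay at 0.0376 with quantile normalization and at 0.0432 with the replicate number as a block. The difference was -0.77 without NTG array 1, with an adjusted p of 0.0867, and -0.82 and -0.83 without MCK-PPARb array 1 or 2, with adjusted p of 0.663 and 0.586. Probe set 1424562_a_at read 126941 and 101755 against 92145 and 82541 (-0.38 ± 0.21, adjusted p = 0.574 with limma). Without NTG array 1 its difference was -0.22. The dim 1424563_at read 741 and 959 against 433 and 450 (-0.93 ± 0.33, adjusted p = 0.351 with limma). The last passed the filter only through the NTG group, since its MCK-PPARb mean of 441 lay below it. The probe sets of this gene thus had the same sign but differed in size, from -0.93 to -0.38, or from -0.83 to -0.38 without the dim one.

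Slc25a5 is the translocator isoform of most proliferating tissues. Its brightest probe set read 11669 and 7217 in NTG muscle and 7703 and 9116 in MCK-PPARb muscle, with overlapping groups and a difference of -0.13 ± 0.26 (adjusted p = 0.908 with limma, 95% limits -0.73 to 0.47). Without NTG array 1 the difference was 0.22. Of its 8 probe sets 7 were tested, and 5 had positive and 2 negative differences, from -0.13 to 0.77. All 7 read 1 gene on the same arrays. On the 3 dimmest of the 7 both MCK-PPARb arrays lay above both NTG arrays. Over all genes, each at its brightest probe set, 22.2% had groups apart in this direction. The probe set at 0.77, one of those 3, passed the filter only through the MCK-PPARb group (means of 394 and 671); the other 6 ran from -0.13 to 0.37. The difference between the log2 differences of the brightest probe sets of Slc25a4 and Slc25a5 was -0.27, and an exact two-sided permutation test of the ratio within each array gave p = 0.333, the smallest it can give. Both isoforms are similar in sequence, and 5 of the 7 tested Slc25a5 probe sets carry the suffix for shared sequence, so signal from each other or from copies of the genes cannot be told apart here.

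**Figure D2:**
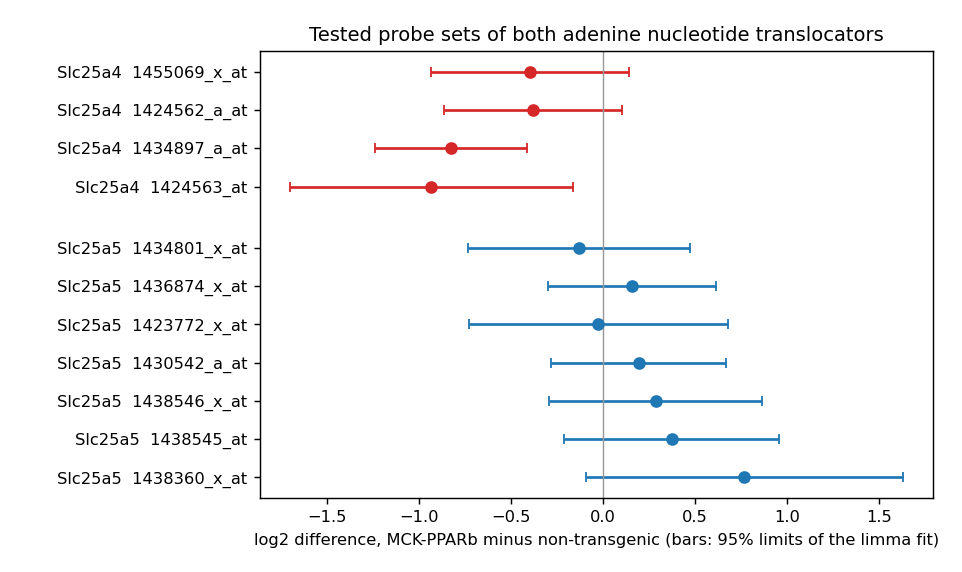
Log2 differences, MCK-PPARb minus non-transgenic, of each tested probe set of the muscle translocator Slc25a4 (red) and of Slc25a5 (blue), ordered by mean signal within a gene; bars are 95% limits of the limma fit, not adjusted for the number of probe sets. All 4 Slc25a4 probe sets lie at -0.93 to -0.38, and the 7 of Slc25a5 lie at -0.13 to 0.77. The probe set at -0.93 passed the filter only through the non-transgenic group, and that at 0.77 only through the MCK-PPARb group.

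The phosphate carrier Slc25a3 read 128772 and 74936 in NTG muscle and 81168 and 82286 in MCK-PPARb muscle. The 3 arrays other than NTG array 1 lay close together. The difference was -0.27 ± 0.27 (adjusted p = 0.800 with limma, 95% limits -0.91 to 0.38), and it turned to 0.13 without NTG array 1. Slc25a23, another calcium-regulated ATP-magnesium carrier, had a difference of 0.023 ± 0.35, and Slc25a24 of the same subfamily lay below the filter, at 234 to 375 on the 4 arrays.

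Carriers of carboxylates were measured by Slc25a10 and Slc25a35, both tested. Slc25a10, which exchanges malate or succinate for phosphate and is abundant in white fat, had the largest positive difference of the family. It read 358 and 529 in NTG muscle and 906 and 676 in MCK-PPARb muscle. Both MCK-PPARb arrays were higher, with a difference of 0.85 ± 0.37 (1.80-fold, adjusted p = 0.480 with limma, 95% limits -0.013 to 1.71). It passed the filter only through the MCK-PPARb group, since its NTG mean of 435 lay below it, and when every dimmer signal was set to that level the difference was 0.69. Leaving out 1 array at a time gave 0.56 to 1.13. Its other probe set lay below the filter and read 146 and 78.8 against 566 and 202.

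Adipocyte markers are given beside Slc25a10. Of 6 on the array 4 were tested. For 3 of the 4 (75%, beside 22.2% of all genes) both MCK-PPARb arrays lay above both NTG arrays. These were Adipoq at 1.03, Retn at 1.02 and Lipe at 0.76 (0.28 without NTG array 2), while Fabp4 was at -0.23. Lep and Cidec lay below the filter, at 55.7 to 340 units. The summed adipocyte marker signal was 10410 and 14740 in NTG and 13690 and 13270 in MCK-PPARb muscle, with overlapping groups. Most of that sum on every array was Fabp4, at 7277 and 11715 in NTG and 8234 and 7521 in MCK-PPARb muscle. The sum therefore says little about the other adipocyte markers. The part of fat in the Slc25a10 signal was not tested. Slc25a35, a relative of the carboxylate carriers, had a difference of 0.074 ± 0.41, and its sign turned without MCK-PPARb array 1 (-0.39).

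Of the carriers grouped under amino acids and related substrates, 5 of 9 genes were tested and 4 had a negative difference, with a median of -0.35. The placing of Slc25a47 and Slc25a48 in this group is not settled. Slc25a15, the ornithine carrier of the urea cycle, read 981 and 913 in NTG muscle and 603 and 792 in MCK-PPARb muscle (-0.45 ± 0.30, adjusted p = 0.658 with limma). The groups did not overlap, but MCK-PPARb array 2 lay nearer to the NTG arrays than to array 1, without which the difference was -0.26. Its dimmer probe set, below the filter, had a difference of 0.057.

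Slc25a29, a carrier of basic amino acids, was the brightest of this group, at 2694 and 1874 in NTG and 1714 and 1825 in MCK-PPARb muscle (-0.35 ± 0.25, adjusted p = 0.698 with limma). The lower NTG array lay only just above the higher MCK-PPARb array, and the difference was -0.084 without NTG array 1 and -0.61 without NTG array 2. It has 5 probe sets: the 3 tested had differences of -0.39 to -0.035, and the 2 below the filter pointed in opposite directions, at 1.01 and -1.71. The glutamate carrier Slc25a22 (-0.36 ± 0.29) and the glycine carrier Slc25a38 (-0.26 ± 0.27) had overlapping groups. Slc25a22 was at -0.069 without MCK-PPARb array 2, and Slc25a38 at -0.033 without NTG array 2.

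Slc25a44, which carries branched-chain amino acids, gave different answers by probe set. The brightest read 1411 and 1205 in NTG and 1402 and 1326 in MCK-PPARb muscle (0.064 ± 0.25, adjusted p = 0.955 with limma, 95% limits -0.51 to 0.64). A second had a difference of -0.068. The dimmest, 1456465_at, read 722 and 431 against 1100 and 1035, with groups apart and a difference of 0.94 ± 0.35 (adjusted p = 0.387). Slc25a2, Slc25a45, Slc25a47 and Slc25a48 lay below the filter; Slc25a48 read 21.8 to 93.3 units on the 4 arrays.

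Among carriers of cofactors and of further nucleotides, 5 of 6 genes were tested and the groups overlapped for each of the 5. Slc25a51, which brings NAD into mitochondria, was the brightest, at 3732 and 4222 in NTG and 4603 and 4031 in MCK-PPARb muscle (0.12 ± 0.20, adjusted p = 0.889 with limma). Its 95% limits were -0.35 to 0.58, the value was 0.022 without MCK-PPARb array 1, and another tested probe set had a difference of -0.18. The coenzyme A carrier Slc25a42 was at 0.023 ± 0.26, the pyrimidine nucleotide carriers Slc25a33 and Slc25a36 at -0.29 ± 0.25 and -0.24 ± 0.43, and the S-adenosylmethionine carrier Slc25a26 at -0.16 ± 0.41. Slc25a33 was at -0.026 without NTG array 1 and -0.55 without NTG array 2. Slc25a36 had one of the widest spreads within a group, 845 and 2186 on the NTG arrays, and its difference was 0.45 without NTG array 2 (-0.96 to 0.45 over the alternatives). The sign of Slc25a26 turned without MCK-PPARb array 1 (0.31). Slc25a17, which is a carrier of peroxisomes rather than mitochondria, lay below the filter at 92.4 to 325 units.

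Iron and glutathione carriers were all tested. Slc25a28 and Slc25a37 encode mitoferrins, which bring iron into the matrix; the latter is best known from red cell precursors. Slc25a28 read 2677 and 2335 in NTG and 1826 and 2142 in MCK-PPARb muscle, with groups just apart (-0.34 ± 0.22, adjusted p = 0.658 with limma, -0.22 without MCK-PPARb array 1). Slc25a37 read 367 and 963 against 688 and 998, so its groups overlapped, and its difference of 0.48 ± 0.49 turned to -0.22 without NTG array 1. Of the erythroid markers 3 were on the array, and the tested one, Alas2, was at 0.17 ± 0.31, while Hba-a1 read 21.9 to 200.1 and Slc4a1 65.0 to 233. Slc25a39, a carrier of glutathione, read 8252 and 8740 against 8640 and 10412, and its 3 tested probe sets had differences of 0.15 to 0.30 (brightest 0.16 ± 0.19, adjusted p = 0.827, and 0.025 without MCK-PPARb array 2).

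Slc25a30, a relative of the uncoupling proteins first described in kidney, read 1766 and 1401 in NTG and 1288 and 922 in MCK-PPARb muscle. Both MCK-PPARb arrays were lower (-0.53 ± 0.28, adjusted p = 0.573 with limma, -0.29 without MCK-PPARb array 2). A second probe set with almost the same mean read 1811 and 1250 against 821 and 1060, again with groups apart (-0.69 ± 0.30, adjusted p = 0.480). The remaining tested one was at -0.21 with overlapping groups, and both below the filter had negative differences with overlapping groups, at -1.66 and -2.29. Slc25a14, another uncoupling protein relative, lay below the filter at 96.6 and 148 against 86.2 and 76.8.

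Slc25a46 encodes an unusual member of the outer membrane that acts in mitochondrial fusion and fission and has no settled substrate. It read 3764 and 4458 in NTG and 3324 and 2883 in MCK-PPARb muscle (-0.40 ± 0.21, adjusted p = 0.559 with limma). Its second probe set read 2492 and 2682 against 2009 and 1991 (-0.37 ± 0.21, adjusted p = 0.593). Both probe sets had groups apart and nearly the same difference, which ran from -0.53 to -0.28 over the alternatives for the brighter one. Slc25a53, an orphan carrier, read 193 to 390 units, below the filter.

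**Figure D3:**
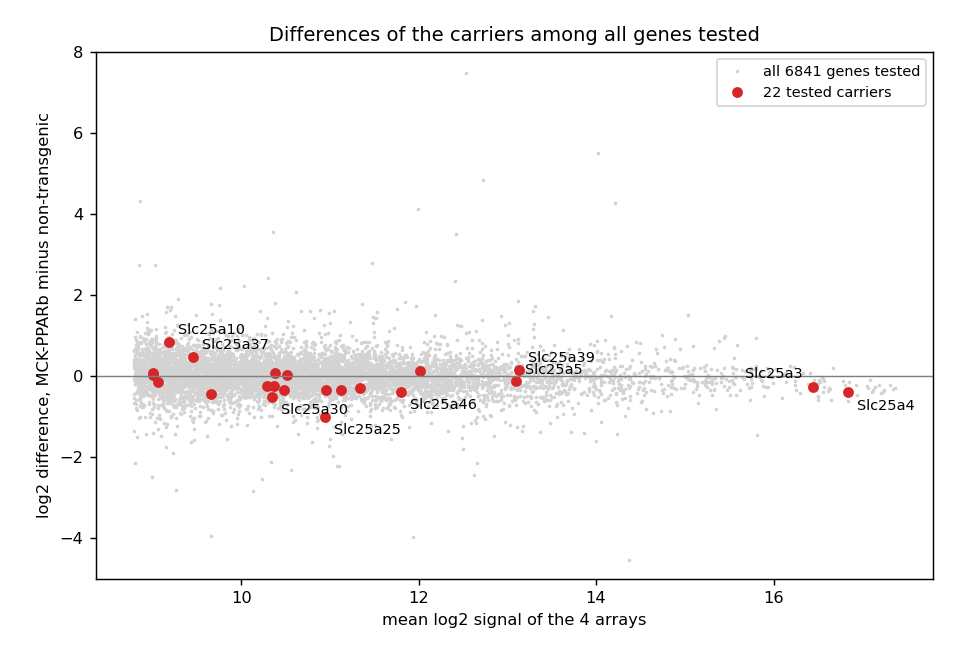
Log2 difference, MCK-PPARb minus non-transgenic, against the mean log2 signal of the 4 arrays for all 6841 genes tested (grey) and the 22 tested carriers (red), with some carriers named. The carriers lie between -1.02 and 0.85, and Slc25a4 and Slc25a3 stand at the bright end.

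Other genes of mitochondrial transport were set beside the carriers, by lists chosen with earlier results of these data known. Of 11 further carriers and relatives 8 were on the array and 6 tested, and none was called. Their median difference was -0.026, or -0.19 over the 4 that remain without Mtch1 and Mtch2, family relatives of the outer membrane at 0.21 and 0.076. Without NTG array 1 these medians were 0.10 and 0.053. The oxoglutarate carrier Slc25a11 read 23504 and 20887 against 17615 and 17358 (-0.34 ± 0.18), the acylcarnitine carrier Slc25a20 was at -0.043 ± 0.22, and the pyruvate carrier subunit Mpc1 at -0.0083 ± 0.18. Ucp3, the uncoupling protein of skeletal muscle, was at -0.43 ± 0.35, and at 0.11 without NTG array 1. Ucp1, that of brown fat, lay below the filter by its mean over the 4 arrays, at 59.1 and 28.9 against 391 and 447.

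The 3 voltage-dependent anion channels, pores of the outer membrane that pass the same metabolites on to the carriers, had differences of -0.35 for Vdac1, -0.35 for Vdac2 and -0.31 for Vdac3, each with groups apart and none called (lowest adjusted p = 0.543 with limma). Without NTG array 1 these were -0.10, -0.31 and -0.18. Over all genes 20.8% had groups apart and lower. The import route of carrier proteins runs from the outer membrane translocase through the small chaperones between the membranes to the inner membrane insertase. Factors on this route had a median of -0.059 over 13 tested genes, and none was called. Of the 13, 5 (38.5%) had groups apart and lower and 2 (15.4%) apart and higher, beside 20.8% and 22.2% of all genes. Among them, Timm8a1 was at -0.84 ± 0.44 (-0.20 without MCK-PPARb array 1), Timm8b at -0.44 ± 0.22 and Timm13 at 0.41 ± 0.19. The sideroflexins Sfxn1 and Sfxn3, serine carriers of another family, were at 0.69 ± 0.40 and 1.33 ± 0.45, and neither was called. Sfxn3 passed the filter only through the MCK-PPARb group (means of 309 and 777.5), and was at 0.78 without NTG array 1. Genes of the respiratory chain, ATP synthase and matrix taken as a mitochondrial reference had a median of -0.11 over 12 genes. They ran from -0.35 for Cycs to 0.20 for Uqcrc1, and none was called. Without NTG array 1 the reference median was -0.11, beside -0.14 for the carriers. Of the 12 reference genes, 5 (41.7%) had groups apart and lower and 0 apart and higher, and 9 (75%) had a negative difference. The 2 tested genes of the calcium uniporter and permeability pore lay on either side of 0. Among the carriers 31.8% had groups apart and lower, and 63.6% had a negative difference. Neither these shares nor the carriers' median of -0.25 were tested against these lists.

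**Figure D4:**
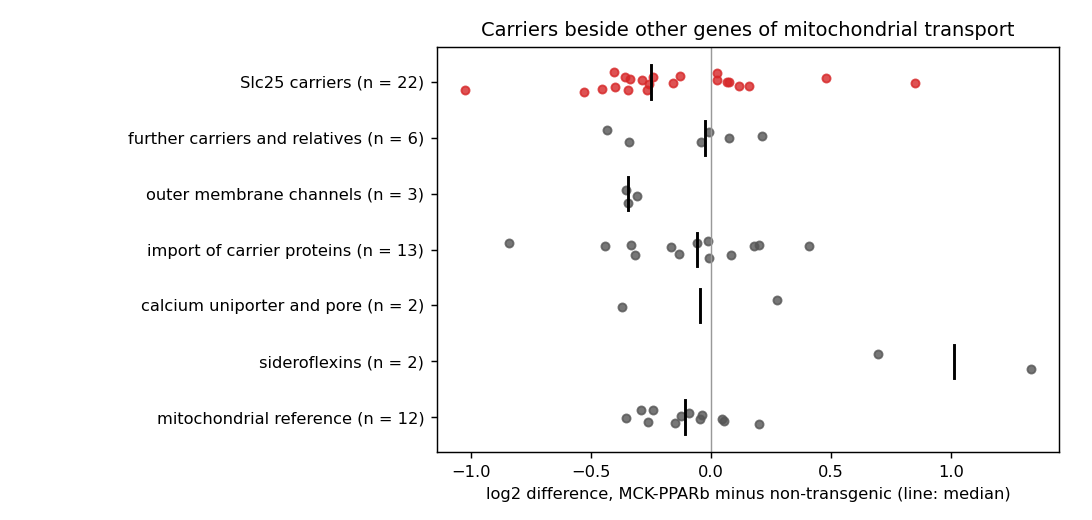
Log2 differences, MCK-PPARb minus non-transgenic, of the tested Slc25 carriers (red) and of the tested genes in 6 other lists (grey); each point is a gene and each black line a median. Medians are -0.25 for the carriers, -0.35 for the 3 outer membrane channels and -0.11 for the mitochondrial reference. Without NTG array 1 they are -0.14, -0.18 and -0.11.

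Markers of other cell types give the setting of these values. The tested Schwann cell markers read higher, with both MCK-PPARb arrays above both NTG arrays for all 4 (median 0.65). Over all genes 22.2% had groups apart and higher. Summed signals of the 5 Schwann cell markers on the array were 18720 and 20260 against 31240 and 34850. Of these, S100b lay below the filter, at 150.3 and 128.5 against 220.9 and 23.9, with overlapping groups. Medians were -0.087 for 6 endothelial, 0.11 for 6 macrophage and -0.15 for 6 fibroblast markers, and -0.33 for the 8 muscle markers. Without NTG array 1 the median of the muscle markers was 0.16, with 6 of the 8 positive, and the other 3 medians were -0.34, 0.36 and -0.085. The macrophage marker Cd14, at 0.56, passed the filter only through the MCK-PPARb group (means of 437.8 and 645.2). The brown fat markers Ucp1 and Cidea lay below the filter by their means over the 4 arrays, with Cidea at 183 and 117 against 593 and 737. The part of other cell types in the carriers' differences was not tested.

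**Figure D5:**
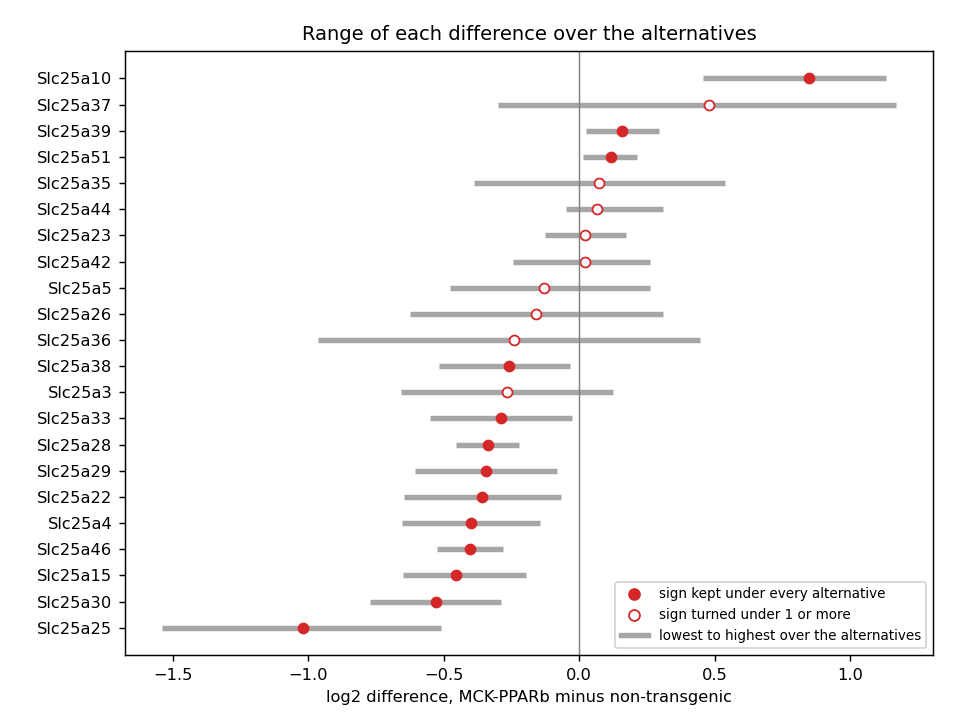
Log2 difference, MCK-PPARb minus non-transgenic, of each tested carrier: the circle is the reported value and the grey bar runs from the lowest to the highest value over the alternative analyses, those that leave out 1 array included. Filled circles mark the 13 carriers whose sign was kept under every alternative that gave a value, and open circles the 9 whose sign turned under at least 1.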

How the data were processed

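The deposited tables hold a linear signal intensity for each probe set, which had been scaled: a mean trimmed by 2% at either end came to 1501 on every array. The submitters' processing notes name MAS5 and GCOS, without versions. Of 22690 probe sets, 64 controls were left out; of the rest, 20380 carried 1 gene symbol, 691 several and 1555 were unnamed here. Symbols of non-members were updated through the gene table of GRCm38.p6.

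Signals were log2-transformed without a pseudocount. Probe sets with a mean log2 signal above the median of all (444 units) were kept: 11313 probe sets, 6841 genes. Of the 61 carrier probe sets, 42 were kept. Groups were tested in R 4.3.3 with limma 3.58.1 (lmFit, eBayes with an intensity trend, Benjamini-Hochberg over kept probe sets, called at adjusted p under 0.05; 5.38 prior and 2 residual degrees of freedom). The fit was tested on simulated data under 2 variance models. With variances drawn from limma's fitted prior the share of false calls lay near the nominal level; with each probe set's own shrunken variance it lay above it. The first version of this check used the latter model and failed its limit on false calls; the former was then added and the limit applied to it alone, with the fit left as it was. Calls over all genes may therefore hold more false ones than the threshold states. The number of arrays limits the precision.

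Members and lists were chosen with earlier results of these data known. Signals are printed for carriers with an unadjusted p under 0.05, for the brightest carrier of each substrate group, for Slc25a4 and Slc25a5, and for carriers whose tested probe sets disagree in sign; Slc25a3, Slc25a15, Slc25a28 and Slc25a37 and the dim carriers were added after their values were seen. Alternatives changed the scaling (quantile, median centring), the pseudocount (17.8 units), the filter (none, 75th percentile, or dimmer signals set to its level), eBayes (untrended or robust), the threshold (0.1) or the probe sets (none with a shared-sequence suffix, or a gene's mean), added a replicate block, or left out each array. Quantile normalization with NTG array 1 left out was chosen after seeing the data, as were the count of negative differences and the motif TGACGTCA.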

Additional observations from a re-analysis of the deposited data

How the results depend on the processing

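At its probe set of highest mean, no carrier was called higher or lower under any of the 17 alternatives. A further probe set of Slc25a4 was called with quantile normalization and with the replicate block, as given with that gene. Further probe sets were fitted singly only with quantile normalization, median centring, the eBayes variants, the replicate block and each array left out. Their calls under the other alternatives were not examined. Meanwhile the number of genes called over the whole array ran from 14 without the intensity trend to 218 with the replicate block. The labels' replicate numbers were used as a block only as an alternative: with 2 pairs they cannot be shown to pair the mice, although replicate 1 minus replicate 2 correlated at r = 0.276 between the groups over the kept probe sets. With the replicate block the carriers' median stayed at -0.249 and 0 were called.

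The median difference of the tested carriers was -0.355 with median centring, which moved the median of all genes to -0.0951, -0.2 with no filter (30 carriers), -0.313 with the filter at the 75th percentile (10 carriers) and -0.198 with probe sets averaged per gene. Leaving out 1 array at a time gave -0.264 to -0.135, the latter without NTG array 1. Quantile normalization with that array left out gave -0.239. The count of carriers with a negative difference was 8 of 10 with the filter at the 75th percentile, where fewer were tested. It was 14 to 15 of 22 with 1 array left out, 18 of 22 with median centring and 11 of 19 with probe sets averaged per gene. Quantile normalization with NTG array 1 left out gave 17 of 22. The count over all genes also depended on the setting. It was 3339 of 6841 in the reported analysis, 4116 with median centring and 3540 with quantile normalization without NTG array 1. With 1 array left out it was 3229 to 3471. The filter at the 75th percentile gave 1907 of 3609 genes, and averaged probe sets gave 2940 of 5978.

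Signs turned for 9 carriers, none of them called. Quantile normalization gave -0.0769 for Slc25a23. Median centring gave -0.0831 for Slc25a23, -0.0319 for Slc25a35, -0.0831 for Slc25a42 and -0.0414 for Slc25a44. Slc25a5 was at 0.194 without shared-sequence probe sets and 0.245 with its probe sets averaged. Quantile normalization with NTG array 1 left out gave -0.00175 for Slc25a23, -0.0713 for Slc25a35, -0.3 for Slc25a37, -0.246 for Slc25a42 and 0.262 for Slc25a5. Leaving out 1 array at a time gave -0.127 to 0.173 for Slc25a23, -0.625 to 0.309 for Slc25a26, -0.656 to 0.125 for Slc25a3, -0.39 to 0.538 for Slc25a35, -0.925 to 0.445 for Slc25a36, -0.217 to 1.17 for Slc25a37, -0.215 to 0.26 for Slc25a42, -0.0494 to 0.178 for Slc25a44 and -0.478 to 0.216 for Slc25a5. The cause was not tested.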
